A study of Danio rerio with 3 samples.

Results

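Mesenchymal epicardial cells of the adult zebrafish ventricle were compared between 7 and 3 days post amputation (dpa). Cells were taken as mesenchymal if they held at least 2 UMIs of hapln1a, fewer than 5 UMIs per 10000 on the summed epithelial genes podxl, cldnc, jam2b, ucmaa and slc29a1b, no UMI of the leukocyte gene ptprc and fewer than 50 UMIs per 10000 of the cardiomyocyte gene myl7. Only droplets with at least 317 detected genes and at most 5% of their UMIs on mitochondrial-coded genes were used. This rule gave 3061 cells at 7 dpa and 1448 at 3 dpa, or 4509 of the 10529 cells of these libraries and of 15627 cells in all 3 libraries. The 7 dpa and 3 dpa libraries came from ventricles of 6-month-old tcf21:nucEGFP fish of the EK strain after partial ventricular amputation, and the third library, Ctrl, from uninjured fish of the same age and line, which gave 2520 mesenchymal cells and served as the resting state. In these fish a nuclear EGFP is driven by regulatory sequence of tcf21, and live EGFP+ cells were sorted, although by ptprc and myl7 the libraries also held leukocytes, 107 at 7 dpa and 73 at 3 dpa, and cardiomyocytes, 36 at 7 dpa and 15 at 3 dpa.

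The epicardium is the cell sheet that covers the heart. Its mesenchymal cells lie beneath the outer epithelial layer and enter the compact muscle, where they produce collagens, proteoglycans and other matrix, and secrete growth factors. After injury the epicardium of the zebrafish is activated over the whole organ and later returns toward rest away from the wound, so that genes that are high at 3 dpa can be followed as they come down, and others can be found that are high only later. UMIs (unique molecular identifiers) count captured transcripts once, whatever their amplification.

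A level below is the number of UMIs of a gene per 10000 UMIs of all mesenchymal cells of a library. The mesenchymal cells held 19191426 UMIs at 7 dpa and 15232489 at 3 dpa, with a median of 5216 UMIs per cell at 7 dpa and 8013.5 at 3 dpa, and 13028019 UMIs with a median of 4658 at Ctrl. There was 1 library per condition, so no test between conditions could be made, fish, injury, library and time cannot be told apart, and a ratio is given with its exact 95% interval, which covers counting error only. Genes with at least 200 UMIs were compared, and those past 1.5-fold by their ratio were counted. The 7 dpa and 3 dpa libraries shared 8 cell barcodes, of which 3 marked a mesenchymal cell in both, and Ctrl shared 13 with 7 dpa and 8 with 3 dpa. Fewer transcripts per cell and fewer cells that transcribe a gene cannot be told apart in such summed levels.

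The label was checked on a gene the rule did not use. Hapln1a, a link protein of hyaluronan matrix, chose them and stood at 18.7 at 7 dpa, against 12.9 at 3 dpa. Pdgfra, a receptor of platelet-derived growth factor and a second marker of these cells, had a level of 1.60 at 7 dpa, against 1.56 at 3 dpa, with a ratio of 1.02 (0.969 to 1.08), and a level of 0.162 at 7 dpa and 0.122 at 3 dpa in leukocytes. In cells of 3000 to 9000 UMIs, described below, its ratio was 0.694 and that of hapln1a 0.931. At the threshold, 380 cells at 7 dpa and 162 at 3 dpa held exactly 2 hapln1a UMIs, and 531 and 239 otherwise like cells held exactly 1. The 24 leukocyte markers summed to 1.61 per 10000 at 7 dpa and 1.58 at 3 dpa, against 238 and 237 in the leukocytes of the same libraries, and 2 of the 24 were at 0 at 7 dpa and 6 at 3 dpa. The 18 cardiomyocyte markers summed to 3.50 at 7 dpa and 3.51 at 3 dpa, against 1197 and 896 in cardiomyocytes. The 16 endothelial markers summed to 0.568 and 0.340, the 12 mural markers to 3.02 and 2.48, and the 10 erythrocyte markers to 0.509 and 0.171. Of the leukocyte markers, lyz, the lysozyme gene, was at 0.103 at 7 dpa, where 185 of its 197 UMIs lay in 1 cell, and at 0 at 3 dpa. A further 10 epithelial genes outside the rule summed to 39.6 at 7 dpa and 84.0 at 3 dpa. Of the 8 that could be compared 4 were lower at 7 dpa and 1, sema3d, was higher, beside 21.6% and 12.1% of all genes. Krt4, a keratin, was one of the lower genes, at 5.41 at 7 dpa, against 18 at 3 dpa, with a ratio of 0.502 at middle depth. In the epithelial cells of the same libraries these 10 genes summed to 119 at 7 dpa and 192 at 3 dpa. In leukocytes they summed to 38.2 at 7 dpa, near the mesenchymal sum, and to 55.2 at 3 dpa.

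Of 7042 genes compared, 850 (12.1%) were at least 1.5-fold higher at 7 dpa than at 3 dpa and 1519 (21.6%) at least 1.5-fold lower. With Ctrl as the resting state, 7880 genes with at least 200 UMIs over the 3 libraries were sorted by pattern. In 1412 genes (17.9%) the 3 dpa level was at least 1.5 times Ctrl and the 7 dpa level lower than 3 dpa by the same factor, called return down here. In 742 genes (9.42%) the level was lower at 3 dpa than at Ctrl and higher again at 7 dpa, called return up. Late rise, higher at 7 dpa than at both other libraries with 3 dpa within 1.5-fold of Ctrl, held 103 genes (1.31%), late fall, the converse, 70 (0.888%), and further rise, past 1.5-fold at each step, 11 (0.14%). Both steps share the 3 dpa library, so they are not independent. At 7 dpa 997 of the 1412 return down genes were within 1.5-fold of Ctrl, 385 were still above it and 30 below. Of the 742 return up genes, 531 were within 1.5-fold of Ctrl at 7 dpa, 189 still below and 22 above. A further 1077 genes were above Ctrl at 3 dpa and not 1.5-fold lower at 7 dpa, and 561 were below Ctrl at 3 dpa and not 1.5-fold higher at 7 dpa.

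**Figure D1:**
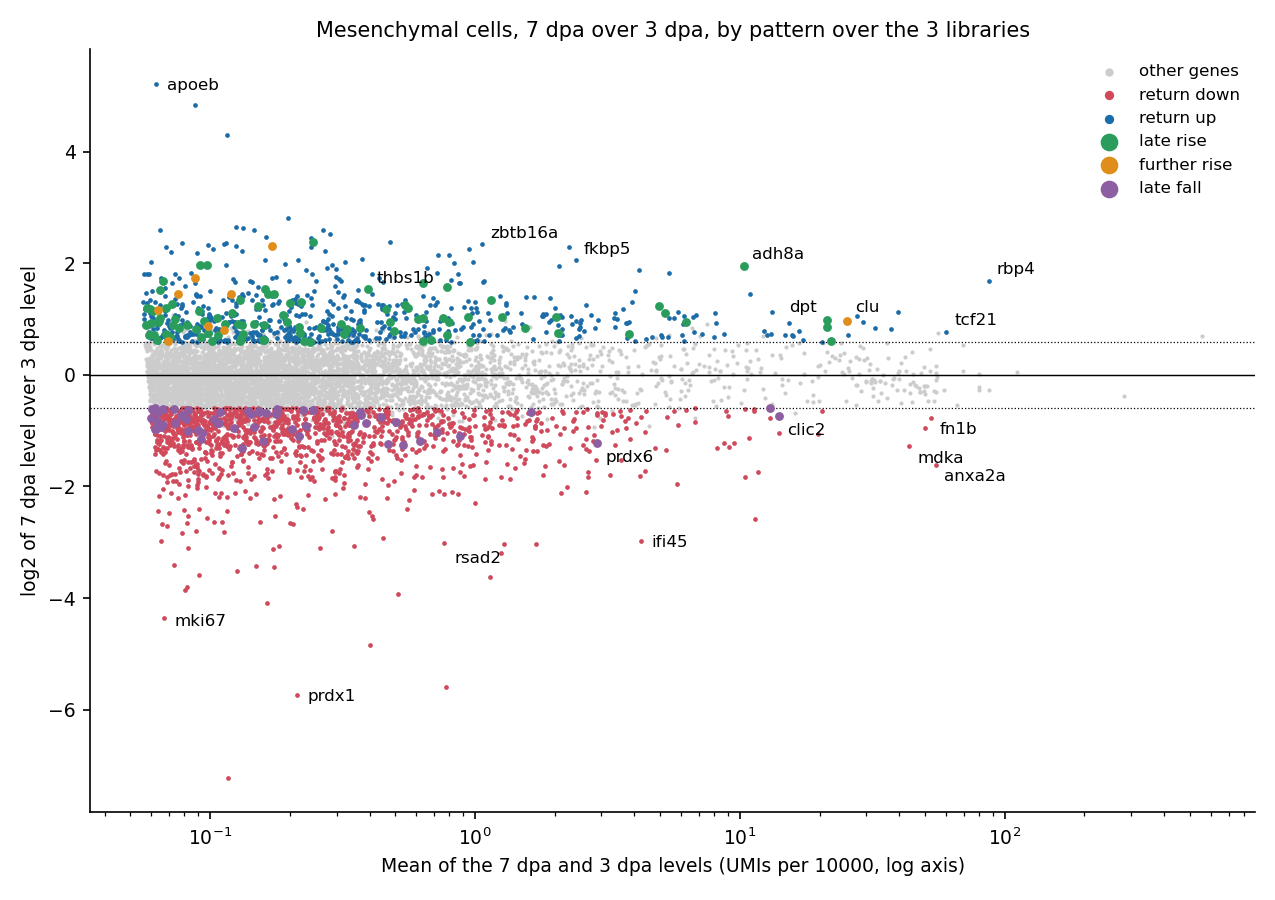
Each point is 1 of 7042 genes, placed by the mean of its 7 dpa and 3 dpa levels (horizontal, UMIs per 10000, log axis) and by the log2 of its 7 dpa level over its 3 dpa level (vertical), coloured by pattern over the 3 libraries, with dotted lines at 1.5-fold. Most genes outside the dotted lines are return down or return up, and late rise, further rise and late fall are few.

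The depth of the cells differed between the libraries and moved with the counts of lower genes. Cells with over 9000 UMIs made up 16.7% of mesenchymal cells at 7 dpa and 44.0% at 3 dpa, and 6.90% at Ctrl. When only cells with 3000 to 9000 UMIs were compared, 2081 at 7 dpa and 663 at 3 dpa, 472 of 4269 genes (11.1%) were higher at 7 dpa and 250 (5.86%) lower. Among cells with over 9000 UMIs, 512 at 7 dpa and 637 at 3 dpa, 504 of 4964 genes (10.2%) were higher at 7 dpa and 1510 (30.4%) lower. The excess of lower genes was thus found in the deep cells, and in cells of middle depth more of the genes compared were higher than lower. Cells of middle depth held 11255554 UMIs at 7 dpa and 3851238 at 3 dpa. A gene high at 3 dpa thus reached the minimum of UMIs per gene less readily there. Of the 850 genes higher over all cells, 651 could be compared there, and 326 were again past 1.5-fold. Of the 1519 lower, 720 could be compared, and 187 were again past 1.5-fold. The counts of higher and lower genes at middle depth thus depend in part on this minimum. The class over 9000 UMIs has no upper limit, and depth still differed within it. Of all mesenchymal cells 90% lay at or below 11034 UMIs at 7 dpa and 21182 at 3 dpa. Cells of 3000 to 9000 UMIs had medians of 5169 at 7 dpa and 5689 at 3 dpa. The part of depth in the values was not tested beyond this split. Of the 742 return up genes, 507 could be compared in cells of 3000 to 9000 UMIs, and 497 of them were again higher at 7 dpa, 279 by at least 1.5-fold. For return down, 534 of 611 were again lower, 181 by at least 1.5-fold. Late rise gave 54 of 59 in the same direction, 28 past 1.5-fold, and late fall 16 of 23, 1 past 1.5-fold. These cells are a part of those that set the patterns, so the figures describe where the differences lie. Values from cells of 3000 to 9000 UMIs are given below for selected lists and genes, under the words "at middle depth", and col11a1a, g0s2, lin7b, mki67 and mmrn2a had too few UMIs there for a ratio.

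**Figure D2:**
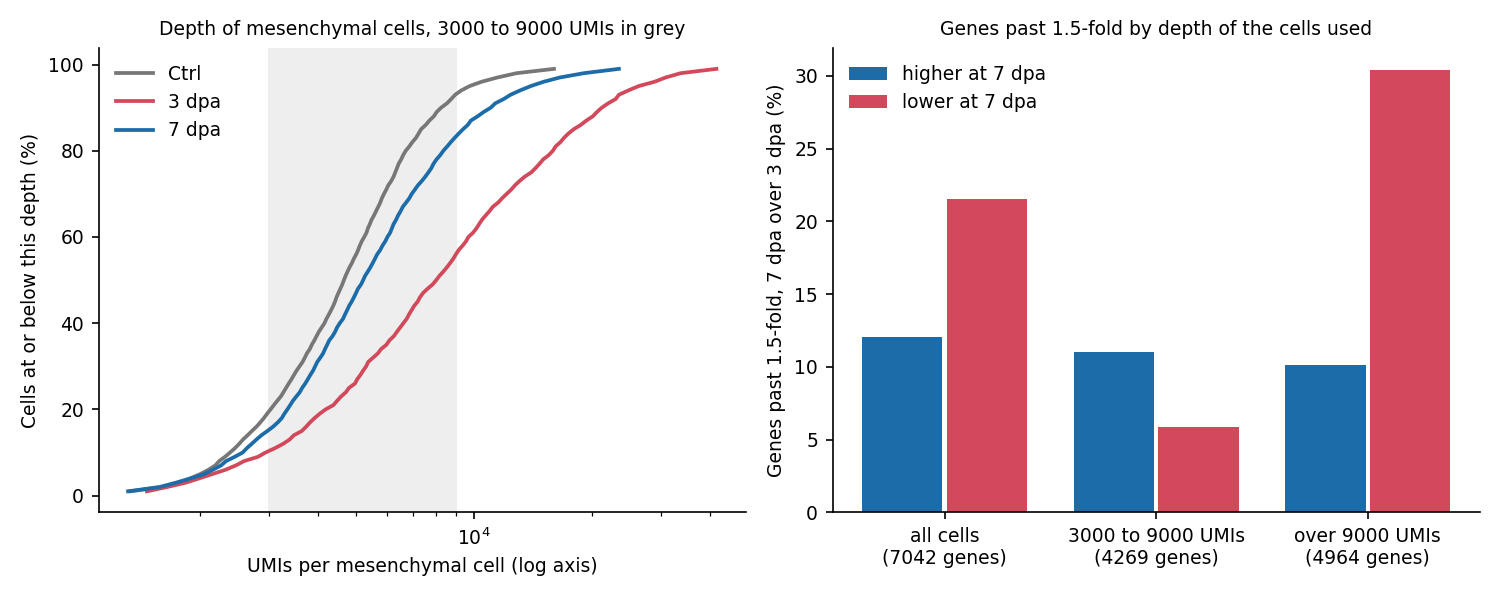
Left, the share of mesenchymal cells at or below each depth (UMIs per cell, log axis) in Ctrl, 3 dpa and 7 dpa, with 3000 to 9000 UMIs in grey. Right, the share of genes at least 1.5-fold higher or lower at 7 dpa than at 3 dpa in all cells, in cells of 3000 to 9000 UMIs and in cells over 9000 UMIs: higher genes stay between 10.2% and 12.1%, while lower genes are at 21.6%, 5.86% and 30.4%.

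Most interferon response genes followed the return down pattern. These are the genes that cells turn on after sensing interferon, and many block the replication of viruses. Of 40 interferon response genes compared, 28 were lower at 7 dpa than at 3 dpa and 1 higher, beside 21.6% and 12.1% of all genes. Their median log2 ratio was -1.27, against -0.10 over all genes compared, and all 28 belonged to return down. In 7 of the 28 the mesenchymal level at 3 dpa was above that of both leukocytes and cardiomyocytes. Ifi45, named for its induction by interferon, had a level of 0.540 in Ctrl, 7.50 at 3 dpa and then 0.955 at 7 dpa, which is 7.85-fold (7.47 to 8.25) lower at 7 dpa than at 3 dpa. Rsad2, the antiviral enzyme viperin, had 1 UMI at Ctrl, and its level was 0.000768 in Ctrl, 1.36 at 3 dpa and then 0.170 at 7 dpa, 8.02-fold (7.14 to 9.04) lower at 7 dpa. Mxb, an antiviral GTPase of the dynamin family, stood at 0.00230 in Ctrl, 0.622 at 3 dpa and then 0.0740 at 7 dpa. The 7 dpa levels of these genes remained above Ctrl. Isg15, a ubiquitin-like modifier, was 8.17-fold (7.46 to 8.96) lower at 7 dpa, and stat1b, a transcription factor of the interferon pathway, 5.32-fold (4.40 to 6.46) lower. At 3 dpa leukocytes held a level of 4.06 for ifi45 and 3.84 for isg15, above the mesenchymal level of isg15, 2.29, and below that of ifi45. After each cell was thinned to 1800 UMIs, which left out 105 cells at 7 dpa and 41 at 3 dpa, rsad2 was found in 0.372% (0.186 to 0.665) at 7 dpa and 5.83% (4.66 to 7.18) at 3 dpa, and before thinning in 0.425% and 10.7% of cells. Of leukocytes thinned alike, 0 of 102 at 7 dpa, which allows up to 2.94%, and 5.71% at 3 dpa held it, with median depths of 7192 and 7741 UMIs before thinning. The signal was uneven among cells, with up to 86 rsad2 UMIs in 1 cell at 7 dpa and 157 at 3 dpa. At middle depth 8 of 18 interferon genes were lower and none higher, with a median log2 of -0.54, beside 5.86% and 11.1% of all genes. In cells thinned before the rule was applied 3 of 10 were lower and none higher, beside 7.28% and 14.4% of 1963 genes. Their median there was -0.10. Of the members named, rsad2, which lay in few cells at 7 dpa, was 136-fold lower at middle depth, ifi45 10.2-fold and stat1b 9.15-fold. Other members were close between the libraries, such as stat1a at a ratio of 0.866 (0.829 to 0.906) and b2m, a light chain of antigen-presenting complexes, at 1.05 (1.02 to 1.07). In the cells that held no UMI of rsad2, mxa, mxb or isg15, a choice made after seeing the data, 6 of 22 interferon genes were lower at 7 dpa and 0 higher. Of all 5982 genes compared in these cells, 14.3% were lower and 11.2% higher. The cells left out, 5.95% at 7 dpa and 29.6% at 3 dpa, were chosen by interferon genes, so the smaller count was partly set by that choice.

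Other genes of the return down were nearly silent at rest. Adamtsl7, a secreted relative of the ADAMTS proteases without protease activity, had 0 UMIs at Ctrl and a level of 0.0391 at 7 dpa, against 0.326 at 3 dpa, 8.33-fold (6.52 to 10.8) lower at 7 dpa. It was found in 0.507% (0.284 to 0.836) at 7 dpa and 3.62% (2.71 to 4.74) at 3 dpa of thinned cells, and in 1.70% and 14.6% before thinning. Of thinned leukocytes, 0 of 102 and 0 of 70 held a UMI, which allows shares of up to 2.94% and 4.29%. Col11a1a, a chain of a minor fibrillar collagen, had 0 UMIs at Ctrl and 0.0255 at 7 dpa, against 0.273 at 3 dpa, and lay in 28 cells at 7 dpa and 103 at 3 dpa. Both genes were thus far below their 3 dpa level at 7 dpa without being back at 0. Lgals17, a galectin gene, had a level of 0.0430 in Ctrl, 0.794 at 3 dpa and then 0.105 at 7 dpa and sst6, a gene of the somatostatin family, of 0.00614 in Ctrl, 0.148 at 3 dpa and then 0.0172 at 7 dpa. The remaining leading genes were lin7b, a scaffold of cell junctions, 11.9-fold (8.02 to 18.5) lower at 7 dpa, mmrn2a, a multimerin of the extracellular matrix, 7.92-fold (5.29 to 12.3) lower, and hadhab, which encodes a subunit of the mitochondrial enzyme of fatty acid oxidation, 6.91-fold (4.98 to 9.81) lower. For hadhab the fold at middle depth was 1.58, and over all cells it had 43 UMIs at 7 dpa and 236 at 3 dpa. At middle depth the ratio was 0.319 for adamtsl7, 0.0825 for lgals17 and 0.189 for sst6. Prdx1, a peroxiredoxin that reduces peroxides, had the lowest ratio among the genes of the 31 lists with at least 200 UMIs, with a level of 0.00384 in Ctrl, 0.418 at 3 dpa and then 0.00782 at 7 dpa, 53.4-fold (32.1 to 96.0) lower at 7 dpa, and at middle depth 21.4-fold lower. In leukocytes prdx1 stood at 0.200 at 7 dpa and 0.919 at 3 dpa, and in epithelial cells it was 81.2-fold lower at 7 dpa, so both layers showed it.

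**Figure D3:**
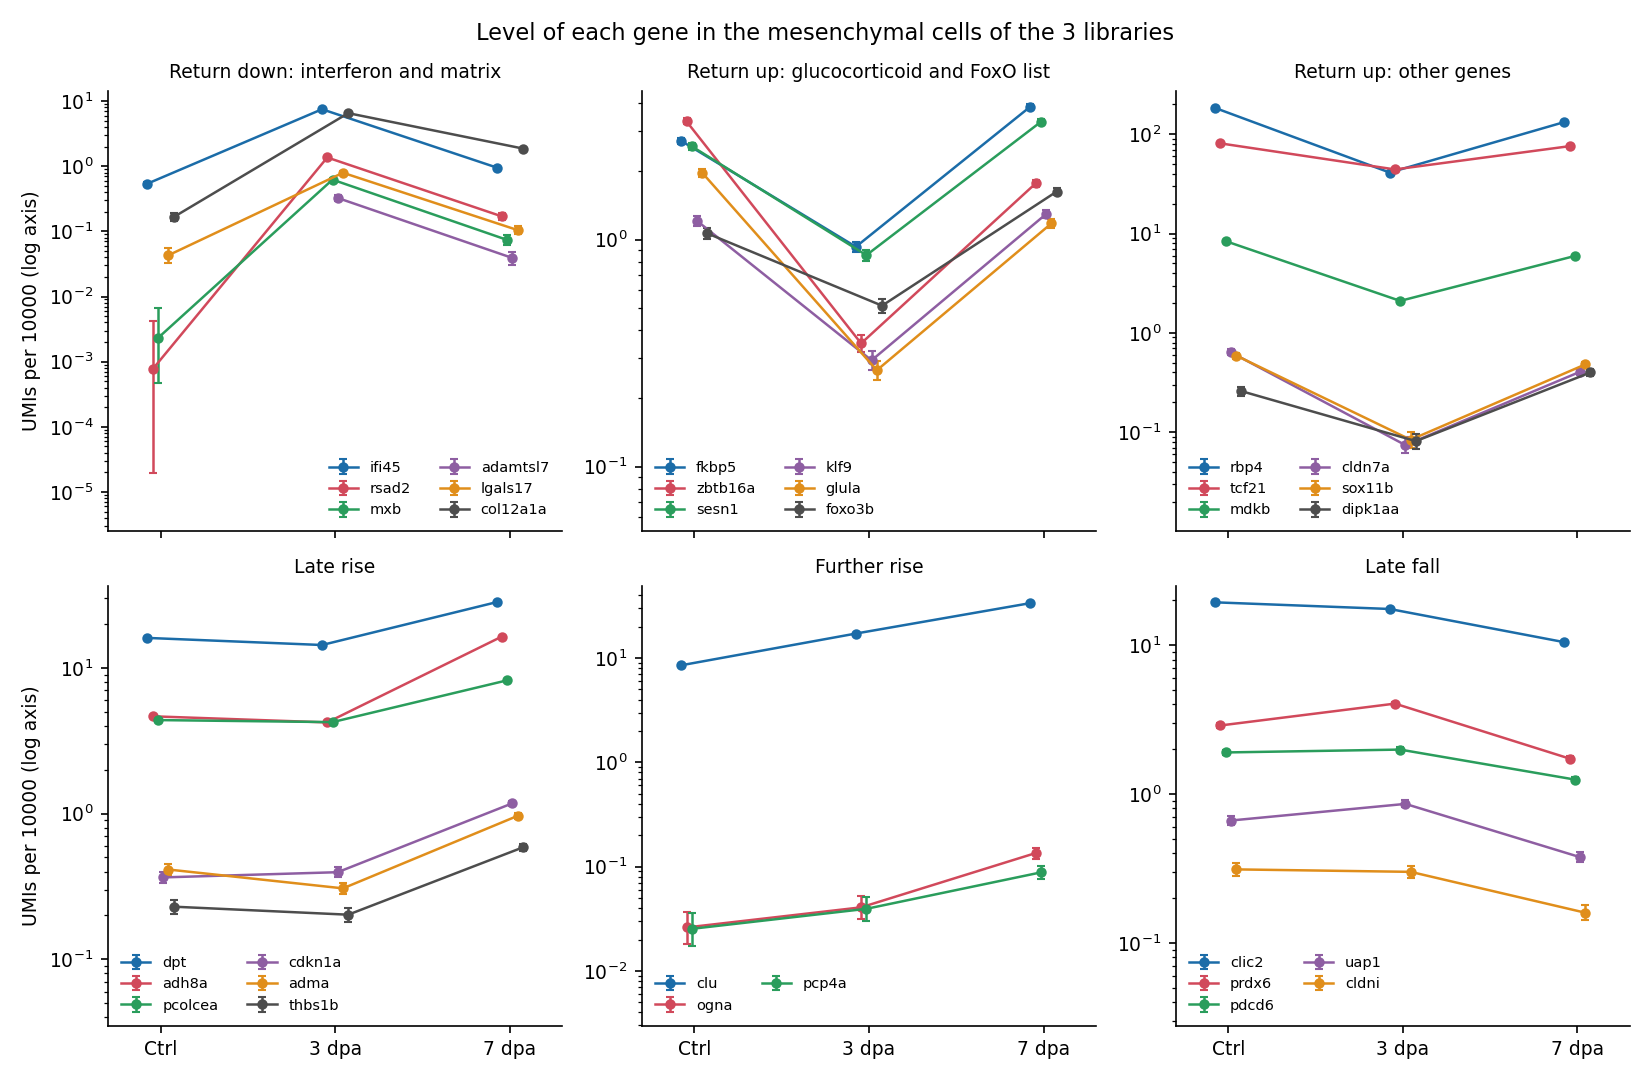
Levels (UMIs per 10000, log axis) of selected genes of each pattern in the mesenchymal cells of Ctrl, 3 dpa and 7 dpa, with exact Poisson 95% intervals as bars, and no point where a library held 0 UMIs. Of the genes drawn, the interferon genes, adamtsl7, lgals17 and col12a1a peak at 3 dpa, those of the glucocorticoid and FoxO list and rbp4 dip at 3 dpa, dpt, adh8a and cdkn1a are high at 7 dpa only, clu climbs at each step, and clic2 and prdx6 are low at 7 dpa.

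Genes that the study linked to activated epicardial progenitors were lower at 7 dpa, though they were chosen on these samples and give no independent evidence of a direction. Of 11 such genes compared, 9 were lower at 7 dpa and none higher, beside 21.6% and 12.1% of all genes. Their summed level was 10.1 at 7 dpa and 26.4 at 3 dpa, and 5.05 at Ctrl, and in leukocytes 4.87 at 7 dpa and 14.4 at 3 dpa. Fn1a, a fibronectin gene, had a level of 1.19 in Ctrl, 12.9 at 3 dpa and then 5.25 at 7 dpa, and ptx3a, a secreted pentraxin of innate immunity, of 0.0307 in Ctrl, 1.18 at 3 dpa and then 0.333 at 7 dpa. Col12a1b, a collagen that decorates fibrils, stood at 0.0184 in Ctrl, 1.71 at 3 dpa and then 0.468 at 7 dpa. At middle depth these 3 genes were within 1.5-fold, with ratios of 1.06, 1.13 and 0.946, and in cells over 9000 UMIs the ratios were 0.465, 0.403 and 0.400. Serpinh1a, a collagen chaperone, kept a ratio of 0.613 at middle depth beside 0.425 over all cells. Snai1a, a transcription factor of epithelial-mesenchymal transition, and tgfb1a, a growth factor of fibroblast activation, were within 1.5-fold, at 1.28 (1.18 to 1.39) and 0.799 (0.723 to 0.883).

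Many genes of protein turnover, respiration, folding and division were lower at 7 dpa over all cells. Among all genes compared, 21.6% were lower and 12.1% higher. Of 42 subunits of the proteasome, the complex that degrades tagged proteins, 41 were lower at 7 dpa, with a median log2 ratio of -1.16. For example psmb1 had a level of 0.443 in Ctrl, 1.35 at 3 dpa and then 0.403 at 7 dpa. Of 77 nuclear-coded genes of oxidative phosphorylation, 59 were lower, with a median of -0.89. Atp5mc1, a subunit of the ATP synthase ring, stood at 0.385 in Ctrl, 3.02 at 3 dpa and then 0.370 at 7 dpa. Of 35 ER chaperone and unfolded protein response genes, which fold secreted proteins, 19 were lower and 2 higher, and calr, the chaperone calreticulin, was 3.90-fold (3.47 to 4.40) lower. Heat shock genes were lower in 10 of 18 and higher in none, with hsp90aa1.2, a cytosolic chaperone, at 0.403 in Ctrl, 2.17 at 3 dpa and then 0.793 at 7 dpa. Cell cycle genes were lower in 16 of 22 and higher in 1, and mki67, a marker of dividing cells, stood at 0.00691 in Ctrl, 0.128 at 3 dpa and then 0.00625 at 7 dpa. Of 53 actin cytoskeleton genes 26 were lower and 5 higher, with anxa2a, an annexin at the membrane, abundant and 3.05-fold (3.02 to 3.08) lower. Redox and glutathione genes were lower in 16 of 40 and higher in 1, and txn, thioredoxin, was 3.89-fold (3.76 to 4.02) lower.

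Few of these genes were past 1.5-fold in cells of middle depth. There 3 of 30 proteasome subunits were lower at 7 dpa, 2 of 72 oxidative phosphorylation genes, 1 of 43 actin cytoskeleton genes with 4 higher, and 0 of 10 cell cycle genes with 1 higher, beside 5.86% of all genes. In cells with over 9000 UMIs the counts were 41 of 42, 59 of 76, 28 of 48 and 18 of 21, beside 30.4%. ER chaperones and heat shock genes stayed lower in part at middle depth, in 7 of 28 and 5 of 17, with hsp90aa1.2 at a ratio of 0.552 and calr at 0.478, and redox genes in 5 of 34. The other genes named had ratios at middle depth of 0.693 for psmb1, 0.676 for atp5mc1, 0.677 for anxa2a and 0.563 for txn. The 3 dpa mesenchymal level was above that of both leukocytes and cardiomyocytes for 3 of the 41 lower proteasome genes, 1 of the 59 of oxidative phosphorylation and 0 of the 16 of the cell cycle. Leukocytes had psmb1 at 0.811 at 7 dpa and 1.87 at 3 dpa, and epithelial cells had psmb1 4.26-fold lower at 7 dpa. Cytosolic ribosomal proteins were within 1.5-fold in 76 of 78, with a median log2 of -0.12. Of the 13 mitochondrial-coded genes 3 were lower over all cells and 0 higher. The lower share, 23.1%, was near the 21.6% of all genes, and at middle depth 0 of 13 were lower and 0 higher. Mt-co1, a subunit of cytochrome oxidase, had a ratio of 0.937 (0.921 to 0.953) over all cells.

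Most genes of a glucocorticoid, FoxO and quiescence list were higher at 7 dpa. Glucocorticoid hormones act through a nuclear receptor, and FoxO factors are active when growth signals are low. Many of the genes listed restrain growth or belong to the circadian clock. Of 44 genes compared, 29 were higher at 7 dpa than at 3 dpa and 2 lower, beside 12.1% and 21.6% of all genes. The median log2 was 0.90, with 21 members in return up and 7 in late rise. Of the 29, 21 were above the level of leukocytes and cardiomyocytes at 7 dpa. Fkbp5, a chaperone that glucocorticoids induce, had a level of 2.72 in Ctrl, 0.931 at 3 dpa and then 3.86 at 7 dpa, 4.15-fold (3.92 to 4.39) higher at 7 dpa. Zbtb16a, a zinc finger factor, stood at 3.32 in Ctrl, 0.349 at 3 dpa and then 1.77 at 7 dpa and its paralog zbtb16b at 1.60 in Ctrl, 0.385 at 3 dpa and then 1.57 at 7 dpa. Klf9, a Krüppel-like factor, was 4.41-fold (3.99 to 4.89) higher and glula, glutamine synthetase, 4.44-fold (3.99 to 4.94) higher. Sesn1, a sestrin that restrains the growth kinase mTORC1, had a level of 2.58 in Ctrl, 0.855 at 3 dpa and then 3.31 at 7 dpa, and foxo3b, a FoxO factor itself, of 1.07 in Ctrl, 0.512 at 3 dpa and then 1.63 at 7 dpa. These levels at 7 dpa were at or above Ctrl for fkbp5, klf9, sesn1 and foxo3b and below it for zbtb16a and glula. At middle depth 19 of 41 members were higher and 1 lower, beside 11.1% and 5.86% of all genes, and in cells over 9000 UMIs 22 of 39 were higher and 1 lower. Fkbp5 was 3.90-fold higher at middle depth and 3.25-fold in the deep ones. At middle depth zbtb16a was 3.27-fold higher, zbtb16b 2.60-fold, klf9 2.49-fold, glula 2.64-fold and sesn1 2.40-fold. Nr3c1, the glucocorticoid receptor gene, was named after its values were seen and had levels of 0.395 at 7 dpa, against 0.377 at 3 dpa. Clock genes, also named after their values were seen, lay in the same patterns: nr1d2a, a nuclear receptor of the clock, had a level of 0.792 in Ctrl, 0.421 at 3 dpa and then 1.31 at 7 dpa, per3, a period gene, of 0.904 in Ctrl, 0.384 at 3 dpa and then 0.812 at 7 dpa, and dbpb, a factor of the clock's output, of 0.117 in Ctrl, 0.127 at 3 dpa and then 0.313 at 7 dpa. The time of day at which fish were collected is not given in the sources used here, and its part in these values was not tested.

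Many immediate early genes were higher at 7 dpa over all cells. They code for transcription factors that cells switch on within minutes of a stimulus, including the handling of tissue during dissociation. Of 36 compared, 22 were higher at 7 dpa and none lower, beside 12.1% and 21.6% of all genes. The median log2 was 0.66, and 19 were return up. Fosab, a subunit of the factor AP-1, had a level of 84.2 in Ctrl, 24.8 at 3 dpa and then 54.4 at 7 dpa, and junbb, its partner, of 32.2 in Ctrl, 5.85 at 3 dpa and then 16.0 at 7 dpa. Egr1, a zinc finger factor, was 2.16-fold (2.09 to 2.24) higher at 7 dpa. Levels at Ctrl were higher still for fosab and junbb. At middle depth 6 of 36 were higher, or 16.7% beside 11.1% of all genes, and fosab was 1.39-fold, junbb 1.83-fold and egr1 1.37-fold higher. The dual-specificity phosphatases and Sprouty genes, which damp ERK kinase signals, were higher in 6 of 16 and lower in none, with spry2 at 0.346 in Ctrl, 0.185 at 3 dpa and then 0.357 at 7 dpa. At middle depth 2 of 13 of these were higher and none lower, beside 11.1% and 5.86% of all genes. Klf6a, another early gene, had a level of 8.34 at 7 dpa, against 11.8 at 3 dpa.

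Several epicardial genes that were low at 3 dpa were again near their Ctrl level at 7 dpa. Tcf21, the basic helix-loop-helix factor whose regulatory sequence drives the reporter used for sorting, had a level of 80.9 in Ctrl, 44.2 at 3 dpa and then 75.9 at 7 dpa, 1.71-fold (1.70 to 1.73) higher at 7 dpa. Over the alternative settings its ratio ranged from 1.36 to 1.84, so that it was not past 1.5-fold in all of them. Rbp4, a carrier of retinol, was the most abundant return up gene named here, at 184 in Ctrl, 41.2 at 3 dpa and then 133 at 7 dpa, and 3.22-fold (3.19 to 3.25) higher. In both, the 7 dpa level was below that of Ctrl. Of 22 epicardial transcription factors compared, 5 were higher and 2 lower, beside 12.1% and 21.6% of all genes, and 15 were within 1.5-fold. At middle depth 3 of 18 were higher and 0 lower, beside 11.1% and 5.86% of all genes. The median log2 was 0.35 over all cells and 0.005 at middle depth. Osr1, a zinc finger factor of mesenchyme, stood at 0.412 in Ctrl, 0.215 at 3 dpa and then 0.391 at 7 dpa, while runx1, a factor raised in activated cells, stood at 0.0200 in Ctrl, 0.161 at 3 dpa and then 0.0969 at 7 dpa, a ratio of 0.60 at 7 dpa over 3 dpa that was 0.861 at middle depth and 1.33 in cells thinned before the rule was applied. Tbx18, a T-box factor of the epicardium, had a ratio of 1.39 (1.31 to 1.47), and 0.909 at middle depth. Among the leading return up genes were cldn7a, a tight junction claudin, at 0.638 in Ctrl, 0.0742 at 3 dpa and then 0.406 at 7 dpa, and sox11b, a factor of embryonic progenitors, at 0.592 in Ctrl, 0.0840 at 3 dpa and then 0.481 at 7 dpa. Mylipb, a ubiquitin ligase gene, was 7.01-fold (5.51 to 9.02) higher, lrrc4.1, a leucine-rich repeat protein, 6.07-fold (4.08 to 9.35) higher, dipk1aa 4.91-fold (4.06 to 5.98) higher, mamdc2b 6.30-fold (4.72 to 8.58) higher and cyp24a1, the enzyme that inactivates vitamin D, 7.94-fold (4.27 to 16.4) higher. At middle depth rbp4 was 2.01-fold higher, cldn7a 2.88-fold, lrrc4.1 4.03-fold, mamdc2b 3.13-fold and cyp24a1 2.33-fold. Mamdc2b was within 1.5-fold in epithelial cells, at a ratio of 0.690. Apoeb, an apolipoprotein E gene, met the definition with few UMIs, 9 at Ctrl and 5 at 3 dpa, against 234 at 7 dpa, of which 101 lay in 1 of 35 cells.

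Secreted signals differed by member. Of 31 growth factor genes compared, 10 were higher at 7 dpa and 3 lower, with a median log2 of 0.44. That is 32.3% and 9.68%, beside 12.1% and 21.6% of all genes. At middle depth 4 of 27 were higher and 1 lower, beside 11.1% and 5.86% of all genes. Csf1a, a growth factor of macrophages, had a level of 0.219 in Ctrl, 0.0985 at 3 dpa and then 0.361 at 7 dpa, 3.66-fold (3.06 to 4.40) higher at 7 dpa, and bmp4, a bone morphogenetic protein, was 3.28-fold (2.59 to 4.20) higher. Nrg1, a mitogen of cardiomyocytes, had a level of 0.418 in Ctrl, 0.115 at 3 dpa and then 0.208 at 7 dpa, and vegfaa, which drives vessel growth, of 13.6 in Ctrl, 4.12 at 3 dpa and then 6.00 at 7 dpa, so that both were below Ctrl at 7 dpa. The 2 midkine genes, which code for heparin-binding growth factors, went opposite ways. Mdka had a level of 10.3 in Ctrl, 61.5 at 3 dpa and then 25.4 at 7 dpa and mdkb of 8.40 in Ctrl, 2.1 at 3 dpa and then 5.95 at 7 dpa. Pdgfab, a platelet-derived growth factor chain, was 3.31-fold (2.74 to 4.01) lower at 7 dpa over all cells and at a ratio of 0.964 at middle depth. At middle depth bmp4 was 1.56-fold higher, mdkb 1.56-fold and nrg1 1.20-fold, and mdka had a ratio of 0.635. Of 22 secreted modulators of Tgfb, BMP, Wnt and IGF, 8 were higher and 4 lower, or 36.4% and 18.2%. Igfbp1b, an IGF-binding protein, was 5.58-fold (4.37 to 7.20) higher, fstb, a follistatin that binds activins, 3.36-fold (2.88 to 3.92) higher, and cthrc1a, a collagen triple helix repeat protein, 2.82-fold (2.35 to 3.40) lower, though at middle depth its ratio was 1.63. Chemokines and cytokine signals were higher in 8 of 27 and lower in 5, or 29.6% and 18.5%. In these last 2 lists the share that was lower was near the 21.6% of all genes. Of the chemokine and cytokine genes, 4 of the 8 higher and 3 of the 5 lower were above the level of leukocytes and cardiomyocytes. The 51 genes of that list summed to 135 at 7 dpa and 101 at 3 dpa, and in leukocytes to 110 and 101. Cxcl18b, an abundant chemokine gene, had a level of 107 in Ctrl, 43.7 at 3 dpa and then 60.3 at 7 dpa, ccl20b was 4.16-fold (3.33 to 5.24) higher and ccl19a.1 3.05-fold (2.69 to 3.47) lower. Of 19 hypoxia response genes 7 were higher and 1 lower, or 36.8% and 5.26%. At middle depth 6 of 15 were higher, beside 11.1% of all genes. Ddit4, an inhibitor of mTORC1, stood at 0.180 in Ctrl, 0.0374 at 3 dpa and then 0.189 at 7 dpa, and hif1al, a hypoxia-inducible factor gene, at 1.95 in Ctrl, 0.329 at 3 dpa and then 1.57 at 7 dpa. At middle depth igfbp1b was 2.59-fold higher, ccl20b 1.97-fold and ddit4 2.94-fold, and ccl19a.1 had a ratio of 0.185.

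Late rise genes were high at 7 dpa only. They included the matrix gene dpt, dermatopontin, at 16.1 in Ctrl, 14.4 at 3 dpa and then 28.3 at 7 dpa, 1.97-fold (1.94 to 2.0) higher at 7 dpa than at 3 dpa, and pcolcea, an enhancer of procollagen cleavage, at 4.39 in Ctrl, 4.25 at 3 dpa and then 8.22 at 7 dpa. Over the alternative settings the ratio of dpt ranged from 1.33 to 2.11, so it was not past 1.5-fold in all of them. That of pcolcea ranged from 1.59 to 2.71. Adh8a, an alcohol dehydrogenase, had a level of 4.65 in Ctrl, 4.23 at 3 dpa and then 16.4 at 7 dpa, 3.89-fold (3.78 to 3.99) higher over all cells, 1.86-fold at middle depth and 7.39-fold in deep cells. Cdkn1a, the cell cycle inhibitor p21, stood at 0.365 in Ctrl, 0.396 at 3 dpa and then 1.18 at 7 dpa, and was found in 16.5% (15.2 to 17.9) at 7 dpa and 5.54% (4.41 to 6.87) at 3 dpa of thinned cells and in 31.7% and 20.3% before thinning, against 1.96% and 2.86% of thinned leukocytes. Adma, the vasodilator adrenomedullin, had a level of 0.413 in Ctrl, 0.307 at 3 dpa and then 0.964 at 7 dpa. Thbs1b, a thrombospondin of the provisional matrix, had a level of 0.230 in Ctrl, 0.202 at 3 dpa and then 0.586 at 7 dpa and was found in 6.02% (5.19 to 6.94) at 7 dpa and 2.27% (1.56 to 3.20) at 3 dpa of thinned cells, in 11.1% and 8.84% before thinning, and in 0 thinned leukocytes of 102 and of 70. At middle depth thbs1b was 4.74-fold higher at 7 dpa and cdkn1a 2.95-fold. Of the other leading genes, abi3bpb, a matrix protein gene with 175 UMIs at 7 dpa and 20 at 3 dpa, was 6.94-fold (4.36 to 11.7) higher, htr1aa, a serotonin receptor, 3.93-fold (2.97 to 5.28), trib1, a pseudokinase, 3.90-fold (2.92 to 5.28), gpr78a, an orphan receptor, 3.30-fold (2.30 to 4.84), sema3d, a secreted semaphorin and one of the further 10 epithelial genes, 2.75-fold (2.26 to 3.35), and ip6k2a, an inositol phosphate kinase, 2.29-fold (2.07 to 2.54). At middle depth gpr78a and htr1aa were less raised, at 1.37 and 2.41, and abi3bpb stood at 4.45.

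Further rise held 11 genes, of which 4 were above the level of leukocytes and cardiomyocytes. Clu, clusterin, a secreted chaperone, was by far the most abundant of these 4, with a level of 8.53 in Ctrl, 17.2 at 3 dpa and then 33.7 at 7 dpa, 1.96-fold (1.93 to 1.99) higher at 7 dpa than at 3 dpa and 1.73-fold at middle depth. Ogna, the proteoglycan osteoglycin, stood at 0.0261 in Ctrl, 0.0407 at 3 dpa and then 0.135 at 7 dpa, with a ratio of 2.04 at middle depth, and pcp4a, a regulator of calmodulin, at 0.0253 in Ctrl, 0.0394 at 3 dpa and then 0.0881 at 7 dpa. For ogna and pcp4a the step from Ctrl to 3 dpa was only just past 1.5-fold, and it rests on low levels. G0s2, an inhibitor of lipolysis, had a level of 0.176 at 7 dpa, against 0.0643 at 3 dpa, but lay in 9 cells at 7 dpa and 8 at 3 dpa, with 169 of 337 and 84 of 98 UMIs in 1 cell, and its value rests on those cells.

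Late fall genes were low at 7 dpa only, with 3 dpa within 1.5-fold of Ctrl. Clic2, an intracellular chloride channel protein, was abundant, at 19.4 in Ctrl, 17.5 at 3 dpa and then 10.5 at 7 dpa, and prdx6, a peroxiredoxin, stood at 2.89 in Ctrl, 4.05 at 3 dpa and then 1.73 at 7 dpa. Uap1, an enzyme that makes UDP-N-acetylglucosamine, a precursor of hyaluronan, had a level of 0.664 in Ctrl, 0.859 at 3 dpa and then 0.377 at 7 dpa, and cldni, a claudin, of 0.312 in Ctrl, 0.300 at 3 dpa and then 0.159 at 7 dpa. The other leading genes were pdcd6, a calcium sensor, cnih1, a receptor for ER export, golt1bb, of Golgi transport, lrpprc, an RNA-binding protein of mitochondria, prmt5, an arginine methyltransferase, and clip2, which binds microtubules, with ratios between 0.467 for cnih1 and 0.629 for pdcd6. At middle depth the pattern was largely absent. Cldni kept a ratio of 0.477 and clic2 of 0.734, and prdx6 had 0.763, while golt1bb stood at 1.45, prmt5, with 55 UMIs at 7 dpa and 88 at 3 dpa over all cells, at 1.24, cnih1 at 0.980 and uap1 at 0.860.

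Over all cells, matrix genes differed between kinds and between members of a kind. Of 22 collagen genes compared 5 were higher at 7 dpa and 4 lower, or 22.7% and 18.2%, beside the 12.1% and 21.6% of all genes. The abundant chains of fibrillar collagen I were within 1.5-fold, as in col1a2 at 32.3 in Ctrl, 38.2 at 3 dpa and then 50.9 at 7 dpa, and above Ctrl in both injured libraries. Chains of basement membrane collagen IV were return up, with col4a1 at 10.4 in Ctrl, 5.59 at 3 dpa and then 10.6 at 7 dpa, and chains of collagens XI and XII return down, with col12a1a at 0.166 in Ctrl, 6.53 at 3 dpa and then 1.87 at 7 dpa. At middle depth col12a1a had a ratio of 0.631, col12a1b of 0.946 and col11a1b of 1.27, above 1. Laminins, nidogens and other basement membrane genes were higher in 3 of 12 and lower in 1, such as lamb1b at 3.89 in Ctrl, 2.58 at 3 dpa and then 4.90 at 7 dpa. At middle depth 1 of 11 of these was higher and none lower, beside 11.1% and 5.86% of all genes. Col4a1 had a ratio of 1.32 there. Of 33 other matrix proteins 8 were higher and 4 lower. Fn1b, a fibronectin gene and one of the most abundant of the list, had a level of 21.9 in Ctrl, 66.4 at 3 dpa and then 39.1 at 7 dpa, 1.70-fold (1.68 to 1.71) lower at 7 dpa, and kept a ratio of 0.535 at middle depth. Lum, the proteoglycan lumican, stood at 0.141 in Ctrl, 1.97 at 3 dpa and then 0.781 at 7 dpa, with a ratio of 0.744 at middle depth, and postnb, a periostin, was held at 7 dpa, at 2.30 in Ctrl, 10.3 at 3 dpa and then 11.3 at 7 dpa. Collagen folding and cross-linking genes were lower in 9 of 30 and higher in 3. Loxa, a lysyl oxidase, was 3.56-fold (3.00 to 4.23) lower and loxl2a, its relative, 2.14-fold (2.03 to 2.26) higher. At middle depth 4 of 29 of the list were higher and 2 lower, near the 11.1% and 5.86% of all genes. Loxa had a ratio of 0.572 there. Of 13 hyaluronan matrix genes 3 were higher and 5 lower, with opposite directions in the synthases has2, at 0.386 in Ctrl, 0.172 at 3 dpa and then 0.381 at 7 dpa, and has1, at 0.648 in Ctrl, 1.28 at 3 dpa and then 0.536 at 7 dpa. At middle depth 2 of 10 hyaluronan genes were higher and 1 lower, beside 11.1% and 5.86% of all genes, with has1 at a ratio of 0.710. In cells thinned before the rule was applied 4 of 8 were higher and 2 lower, beside 14.4% and 7.28% of 1963 genes. Over all cells, matrix proteases and inhibitors were higher in 4 of 28 and lower in 7. That is 14.3% and 25%, near the 12.1% and 21.6% of all genes. At middle depth 1 of 23 was higher and 6 were lower, beside 11.1% and 5.86% of all genes. Plaub had the lowest ratio of the list, 0.140, and 0.0797 to 0.156 over the alternative settings. Ctsk, cathepsin K, was 1.93-fold (1.83 to 2.04) lower and adamts9 1.87-fold (1.56 to 2.25) higher. Of 11 integrins 1 was higher, itga5, a fibronectin receptor subunit, at 2.16 in Ctrl, 0.990 at 3 dpa and then 1.79 at 7 dpa, and none lower.

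**Figure D4:**
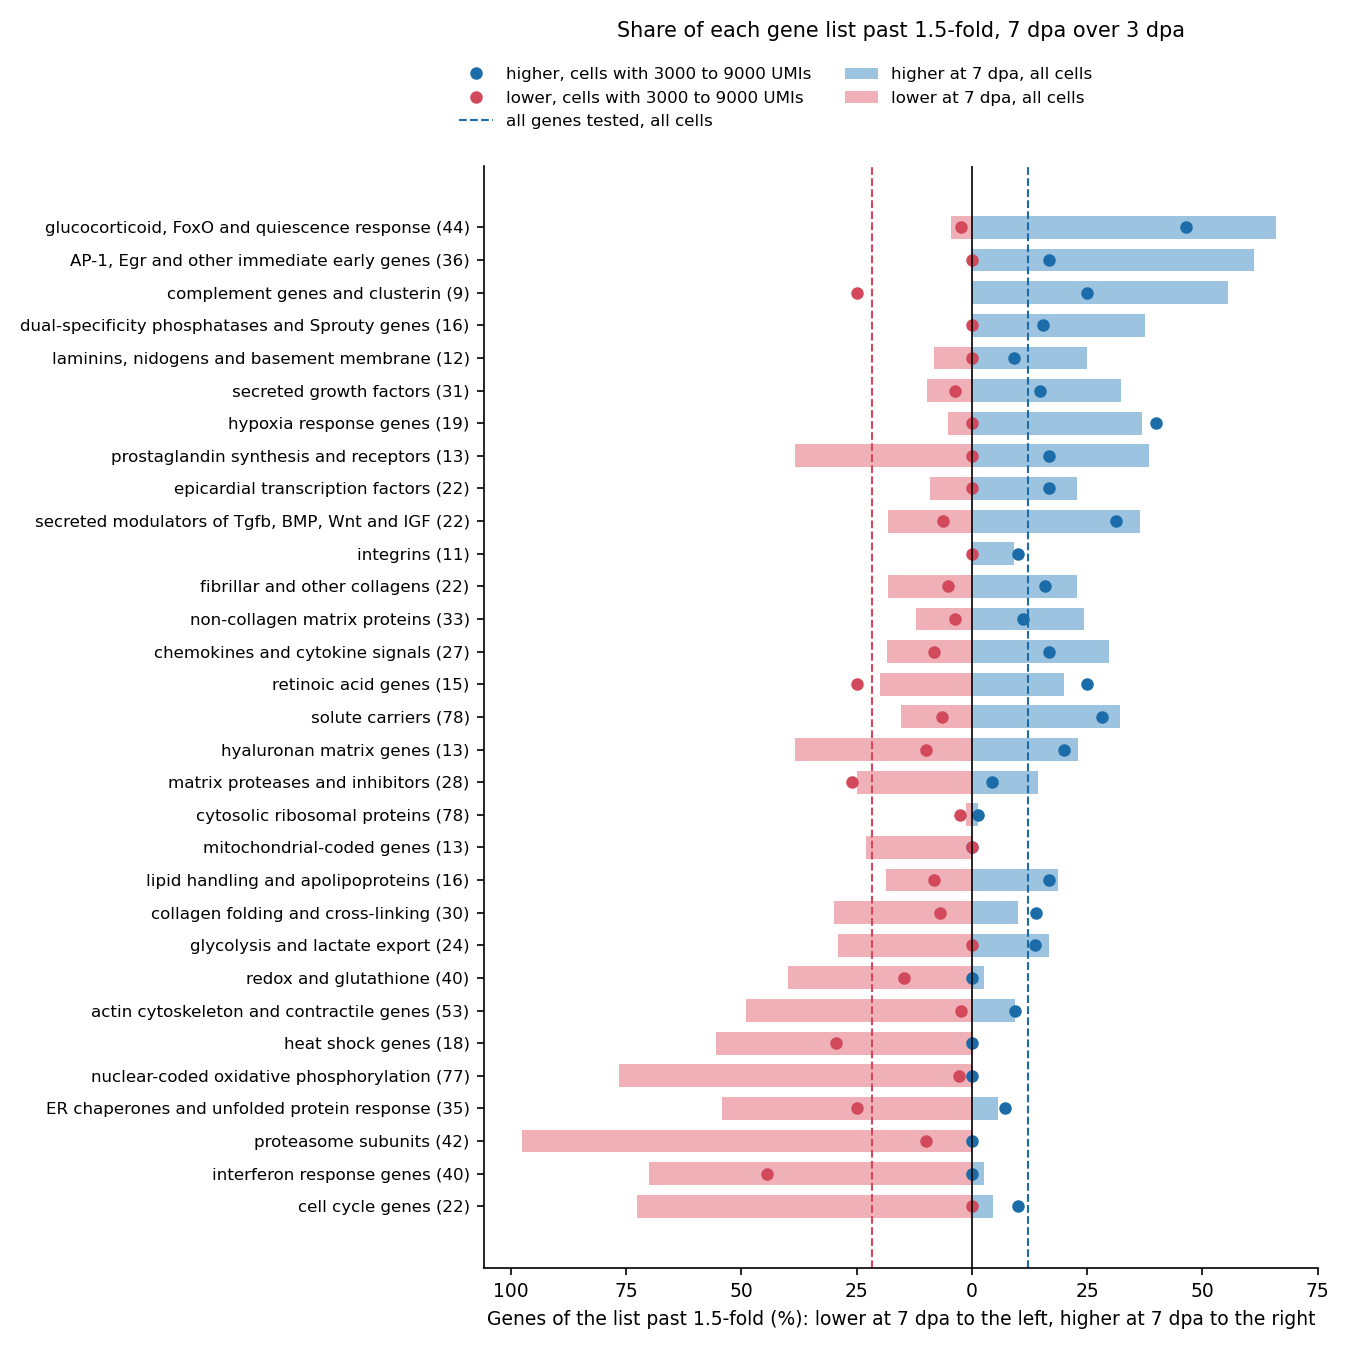
For each of 31 gene lists (number of genes compared in brackets), bars give the share of genes at least 1.5-fold higher (right) or lower (left) at 7 dpa than at 3 dpa in all mesenchymal cells, dots the same in cells of 3000 to 9000 UMIs, and dashed lines the share over all genes in all cells, 12.1% and 21.6%. Proteasome, oxidative phosphorylation, actin and cell cycle bars lie far left of their dots, whereas for the interferon and the glucocorticoid and FoxO lists the dots lie on the same side as the bars and beyond the dashed lines.

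Complement genes and metabolic genes gave mixed pictures, to be read beside the 12.1% of all genes that were higher and the 21.6% that were lower. Of 9 complement genes compared, clu among them, 5 were higher at 7 dpa and none lower. At middle depth 2 of 8 were higher and 2 lower, beside 11.1% and 5.86% of all genes. C4 had a level of 13.1 in Ctrl, 15.1 at 3 dpa and then 27.4 at 7 dpa and c6, of the membrane attack complex, of 14.0 in Ctrl, 17.6 at 3 dpa and then 26.7 at 7 dpa, and at middle depth their ratios were 1.04 and 0.962. Cfd, complement factor D, kept 2.72-fold there beside 3.49-fold (3.19 to 3.82) over all cells. Retinoic acid genes were higher in 3 of 15 and lower in 3, or 20% each. Aldh1a2, the enzyme that makes retinoic acid and a marker of the epithelial layer, had a level of 0.112 in Ctrl, 3.57 at 3 dpa and then 0.892 at 7 dpa in the mesenchymal cells, and leukocytes of the same libraries held 0.836 at 7 dpa and 2.04 at 3 dpa. Stra6, a receptor for retinol carriers, stood at 0.00307 in Ctrl, 0.438 at 3 dpa and then 0.163 at 7 dpa. At middle depth aldh1a2 had a ratio of 0.485 and stra6 of 0.694. Prostaglandin genes were higher in 5 of 13 and lower in 5, with ptgdsb.2, a prostaglandin D synthase, at 0.391 in Ctrl, 0.0427 at 3 dpa and then 0.133 at 7 dpa and 6.33-fold higher at middle depth. There 1 of 6 prostaglandin genes was higher and none lower. Lipid handling genes were higher in 3 of 16 and lower in 3, or 18.8% each, with abca1a, a cholesterol exporter, at 0.566 in Ctrl, 0.647 at 3 dpa and then 1.65 at 7 dpa, below the leukocyte level of 1.96 at 7 dpa. Glycolysis and lactate export genes were higher in 4 of 24 and lower in 7, or 16.7% and 29.2%, beside the 12.1% and 21.6% of all genes. At middle depth 3 of 22 were higher and none lower, beside 11.1% and 5.86% of all genes. Of 78 solute carriers 25 were higher and 12 lower, with slc3a2b, a partner of amino acid transporters, 2.89-fold (2.53 to 3.31) higher and slc39a7, a zinc transporter, 4.57-fold (3.97 to 5.27) lower, with a ratio of 0.680 at middle depth.

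The mesenchymal cells were also divided, after thinning to 1800 UMIs, by which of 4 small gene sets had the most UMIs. The set of inhbb and fgl2b led in 27.5% (25.9 to 29.2) of cells at 7 dpa and 20.3% (18.2 to 22.5) at 3 dpa, that of ptger2b and slc16a3 in 14.0% (12.8 to 15.3) and 11.8% (10.2 to 13.6), that of tnfsf12 and dhrs3a in 17.7% (16.3 to 19.1) and 15.6% (13.8 to 17.6), and rgs5b in 11.3% (10.2 to 12.5) and 13.3% (11.6 to 15.2). At Ctrl the ptger2b and slc16a3 set led in 32.1% (30.3 to 34), so that this share was below Ctrl in both injured libraries. No set led in 29.5% of cells at 7 dpa and 39.0% at 3 dpa. Since the levels of the set genes themselves differ between libraries, the shares are not counts of fixed cell types. Of the genes named above, 5 are given that differed in 1 direction in all 4 groups. Fkbp5 was 2.53 to 4.22-fold higher at 7 dpa over the groups, zbtb16a 2.67 to 8.71-fold and rbp4 2.12 to 3.83-fold, and ifi45 was 4.67 to 14.7-fold lower and aldh1a2 3.10 to 5.25-fold. For others the ratio varied between groups. Adh8a had a ratio of 0.994 in cells led by inhbb and fgl2b and 5.83 in those led by tnfsf12 and dhrs3a. Adma was at 1.38 and 7.21 in the same groups, cdkn1a at 4.26 in the first of them and 1.08 in cells led by ptger2b and slc16a3, and rsad2 at 1.06 in the tnfsf12 and dhrs3a group and between 0.0113 and 0.0602 in the other 3. Since rsad2 was found in few cells at 7 dpa, its ratios by group rest on few cells. The groups also differed in depth before thinning. Cells led by inhbb and fgl2b had medians of 4191 UMIs at 7 dpa and 5116 at 3 dpa. Those led by tnfsf12 and dhrs3a had 6231.5 and 9078.5, by ptger2b and slc16a3 5262 and 7813.5, and by rgs5b 7185 and 10200. These differences between groups, and the part of depth in them, were not tested.

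**Figure D5:**
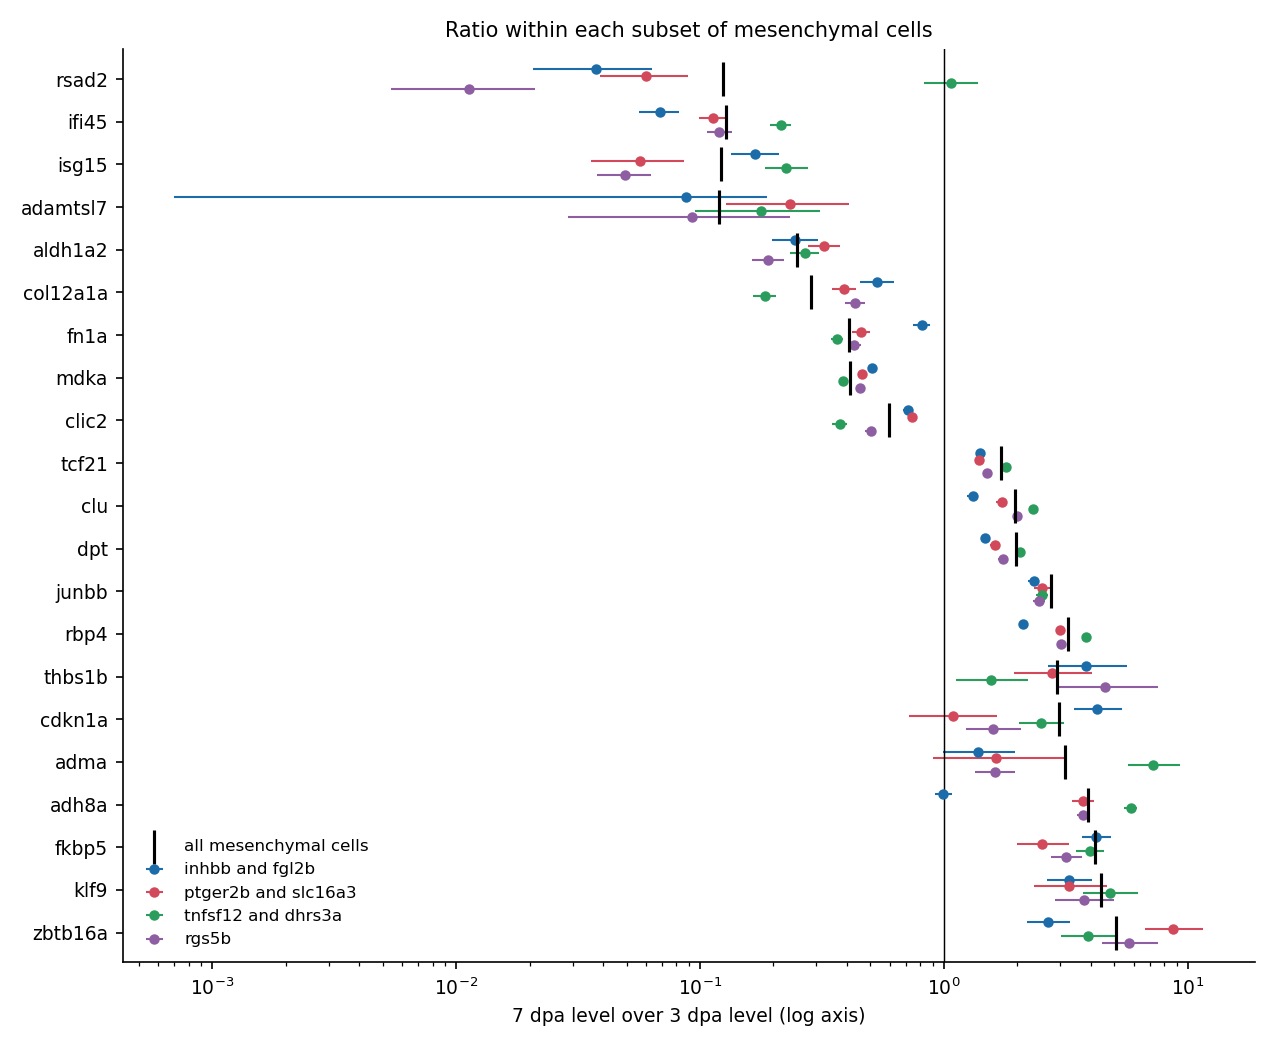
The 7 dpa level over the 3 dpa level (log axis) of selected genes within each of 4 groups of mesenchymal cells, named by the genes that lead in them, with exact 95% intervals for counting error as bars, and in all mesenchymal cells as black ticks. Fkbp5, klf9 and zbtb16a lie right of 1 and aldh1a2 and ifi45 left of 1 in all 4 groups, whereas adh8a, adma and rsad2 differ between groups. Rsad2 was found in few cells at 7 dpa, and the groups also differ in median depth.

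Epithelial cells of the same libraries, 1132 at 7 dpa and 814 at 3 dpa, had 690 of 6592 genes (10.5%) higher at 7 dpa and 2276 (34.5%) lower. Their median depth was 9589 UMIs per cell at 7 dpa and 15784 at 3 dpa. No values by depth are given for epithelial cells, and the part of depth in their ratios was not tested. Examples that differed in the same direction there were fkbp5 at a ratio of 4.93, rbp4 at 5.43 and klf9 at 12.0, and ifi45 4.57-fold lower. Clu was at a ratio of 1.96 in mesenchymal cells beside 0.662 in epithelial cells, and thbs1b at 2.90 beside 0.299. Fn1b was at 0.589 beside 1.36 and vegfaa at 1.46 beside 0.418. Over the alternative settings the mesenchymal ratio of vegfaa ranged from 0.866 to 1.56, on both sides of 1, and that of fn1b from 0.513 to 0.647. The differences between the layers were not tested.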

How the data were processed

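The authors made the deposited UMI counts with Cell Ranger 3.0.2 on GRCz10, per the submitters' processing notes, as 1 matrix of filtered 10x 3′ v3 barcodes per library. Whole UMI counts per gene and cell were used as deposited, and 32520 gene rows were summed to 29064 symbols, of which 617 had several rows. Cells were selected by the rule given in the report in each of 3 libraries. Levels are summed UMIs per 10000, with exact Poisson intervals. For ratios the interval was the exact conditional binomial one, and for shares that of Clopper and Pearson. Each has a level of 95% and covers counting error alone. A count under 3 was set to 3 in ratios. Genes with at least 200 UMIs and a ratio past 1.5 were counted. No doublet caller was run, and an alternative left out the deepest cells, 0.8% per 1000 droplets. Leukocytes were cells with at least 2 UMIs of ptprc.

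Genes were named by rule: in each of 5 patterns the 10 whose interval lay farthest from 1 among genes above the level of leukocytes and cardiomyocytes, in each of 31 lists up to 8 members past 1.5-fold and up to 4 others with the highest level, cell type markers, and tcf21, hapln1a, pdgfra, nrg1, vegfaa and clu. The members, lists and alternatives were chosen with earlier results of these data known, and 1 gene is not reported here and was left out of its list afterwards. Alternatives concerned the fold, the minimum of UMIs per gene and cell, the scale, the rule for cells, depth, cycling cells and cell groups. On simulated counts for 7042 genes, 200 of them changed by 2-fold, 95.4% of intervals held the true ratio. These were Poisson counts, which the intervals assume, so a share near 95% was set in advance. Clustering of UMIs in few cells was not simulated, so the share does not show how the intervals hold for such genes. Analyses used Python 3.11.15, numpy 2.4.6, scipy 1.17.1, pandas 2.3.3 and matplotlib 3.10.9.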

Additional observations from a re-analysis of the deposited data

Results flagged for a closer look

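For 5 genes the ratio of 7 dpa over 3 dpa was past 1.5-fold up in mesenchymal cells and past 1.5-fold down in epithelial cells of the same libraries, and the differences were not tested. Epithelial cells had a median of 9589 UMIs at 7 dpa and 15784 at 3 dpa, and the part of depth in their ratios was not tested either. Clu, the secreted chaperone clusterin, had a ratio of 1.96 in mesenchymal cells and 0.662 in epithelial cells. Thbs1b, a thrombospondin, had 2.90 and 0.299. Slc7a3a, a transporter of basic amino acids, had 2.58 and 0.545. The haemoglobin genes hbaa1 and hbba1 had 2.73 and 4.95 in mesenchymal cells, and 0.530 and 0.453 in epithelial cells. These are genes of red blood cells, whose 10 markers summed to 0.509 per 10000 at 7 dpa and 0.171 at 3 dpa in mesenchymal cells.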

How the results depend on the processing

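Counts are given in the order genes higher and lower at 7 dpa, return down, return up, late rise, further rise and late fall, and are 850, 1519, 1412, 742, 103, 11 and 70 as reported. They were 324, 668, 602, 271, 33, 2 and 6 at a fold of 2, 1376, 2527, 2255, 1149, 182, 37 and 168 with a minimum of 50 UMIs per gene, and 372, 534, 541, 399, 37, 1 and 19 with a minimum of 1000. The minimum of 50 gave 11036 genes to compare between 7 and 3 dpa, 12.5% of them higher and 22.9% lower at 7 dpa. That of 1000 gave 2484 genes, 15.0% higher and 21.5% lower. With cells thinned to 1800 UMIs before the rule they were 283, 143, 159, 361, 27, 3 and 8, and in cells of 3000 to 9000 UMIs 472, 250, 292, 490, 55, 15 and 12. Fewer genes were compared in these last cases, 1963 and 4269, against 7042. In cells with over 9000 UMIs, chosen after seeing the data, 504 were higher, 380 were return up, 23 further rise and 124 late fall. Without cells holding an rsad2, mxa, mxb or isg15 UMI, also chosen after seeing the data, 857 were lower and 832 return down. With the 4 cell groups weighted equally and the remainder left out 1007 were lower, 51 late rise and 40 late fall, and with hapln1a of at least 1 UMI 20 were further rise. The median ratio as the scale moved all log2 ratios by 0.10 and gave 1060 higher and 1256 lower. Other counts stayed within 1.5 times. Of the values of named genes, 3716 stayed within their counting interval, 2550 left it, and 46 changed direction among genes past 1.5-fold with at least 200 UMIs at 7 and 3 dpa, and the cause was not tested. After thinning these were cnih1 1.18, cox7a2a 1.03, ctss2.1 1.11, cxcl8a 1.89, golt1bb 1.30, hmgb2b 1.08, hspa4b 1.01, hspd1 1.01, hspe1 1.0, hyal2b 1.20, lrpprc 1.20, mt-nd6 1.08, nt5c2l1 0.883, pgam1a 1.05, ptgdsb.1 0.753, runx1 1.33, stip1 1.13 and svep1 1.1. In cells of 3000 to 9000 UMIs they were c6 0.962, col11a1b 1.27, cox7a2a 1.04, cthrc1a 1.63, cxcl8a 1.84, eno1a 1.04, fkbp9 1.16, fn1a 1.06, golt1bb 1.45, hspa4a 1.31, hspd1 1.16, hspe1 1.31, mcm6 1.17, nt5c2l1 0.974, pgam1a 1.32, ptx3a 1.13, spry4 0.968, stip1 1.01 and svep1 1.42. Prmt5, below that minimum, stood at 1.24 there. In cells with over 9000 UMIs they were actc1a 0.573, crabp2a 0.856, etv5a 0.955, hbba1 0.953, myl7 0.861, phlda2 0.944, ptges3a 0.872 and sfrp5 0.523, and with groups weighted equally cxcl8a 1.11. No paired analysis was possible because each condition was 1 library with no replicate number, and for the same reason no replicate could be left out.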
